A study of Mus musculus with 40 samples.

Results

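ALL-FGF10 and ALL-MTG are mouse lung organoids sequenced as bulk RNA, with 2 libraries of each, and these 4 of the series' 40 samples were compared with each other. The names are read here as the medium called ALL without FGF10 and the medium called ALL without MTG. That reading of the minus sign is an assumption, and the labels do not spell out MTG, VC, 2C or ALL. Every library came from organoids labelled as grown with the ALL factors, and on that reading each group kept the factor the other lacked. The complete medium ALL and the omission ALL-VC (2 libraries each) were quantified in the same table and entered the fit only to share 1 estimate of the spread. A second table holds 1 library each of 2C, 2C+MTG, 2C+F10 and 2C+VC, with F10 read here as FGF10, and 1 further ALL library without a number. Strain, embryonic stage and days in culture of these libraries are not given in the labels used here. The replicate numbers do not say whether 2 libraries came from separate cultures, so p-values measure the spread between libraries. That spread may be technical in ALL-FGF10 and ALL-VC. The 2 libraries of ALL-MTG, and those of ALL, differed in sex-linked transcripts (given below), so they were not repeats of 1 RNA sample. Of 55260 genes listed, the 13735 with a TPM (a transcript level scaled for transcript length and library total) of at least 1 in at least 2 of the 4 libraries were tested.

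FGF10 is a ligand made by the mesenchyme of the developing lung. It acts through the epithelial receptor FGFR2b on the growing tips, where ERK signalling raises ETV4, ETV5 and the feedback inhibitors of the Sprouty and DUSP families. The distal epithelium gives rise to alveolar type 2 (AT2) cells, which make surfactant, and to flat type 1 (AT1) cells. Between these states, and after injury, alveolar epithelium can pass through a transitional state with high KRT8, KRT18, KRT19 and CLDN4.

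All 4 libraries carried the general markers of lung epithelium. Nkx2-1, the lung lineage transcription factor, was at 359 and 351 TPM in ALL-FGF10 and 262 and 277 TPM in ALL-MTG. Sftpc, the surfactant protein C transcript, was the most abundant of the named genes. Fgf10 itself was listed at 0 in all 4 libraries, so the transcript does not check the label.

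Several features of the libraries moved with the groups. In the 2 ALL-FGF10 libraries 92 genes were listed at 1 TPM or more that were at 0 in the other 6 libraries of the table, against 7 such genes for ALL-MTG, 5 for ALL and 4 for ALL-VC. Of the 92, 56 were pseudogenes, 15 were microRNA genes and 4 were protein-coding, and 67 were among the genes called below. Rps12l1, annotated as a processed pseudogene of a ribosomal gene, reached 447 and 637 TPM with FGF10 omitted and 0 elsewhere in the table. Rpl17-ps5, also a pseudogene, was at 0 in both ALL-FGF10 libraries and between 644 and 1209 TPM in the other 6. Genes of 100 to 150 nucleotides were listed above 0 in 54 and 119 cases in the ALL-FGF10 libraries, in 21 cases in the first ALL-MTG library, and never in the second or in ALL and ALL-VC. ALL-MTG replicate 1 had Xist, the transcript of the inactive X chromosome, at 291 TPM and the Y-linked Eif2s3y at 0.13, whereas replicate 2 had 0.31 and 79.6 and both ALL-FGF10 libraries were also high in Eif2s3y (79.9 and 83.4). The ALL libraries differed too, with Xist at 6.04 and Eif2s3y at 74.45 TPM in replicate 1 and 146.75 and 0.22 TPM in replicate 2. The 2 ALL-FGF10 libraries lay closer together than those of ALL-MTG, with a median absolute difference between replicates of 0.13 against 0.30 on the log2(TPM + 1) scale. Cytoplasmic ribosomal protein genes were called lower in 9 of 79 and higher in 0 (median difference -0.32). Among protein-coding genes, sorted into 4 nearly equal bins by their longest transcript, the shortest bin had a median difference of -0.12 and the longest bin 0.13. The omitted factor and these features of the libraries cannot be told apart, and their part in any result was not tested.

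With limma over all genes tested, 597 of 13735 genes differed between ALL-FGF10 and ALL-MTG at an adjusted p under 0.05, which is 4.35% of those tested. Of these, 305 were higher in ALL-FGF10 (2.22%) and 292 were lower (2.13%). Protein-coding genes leaned to the lower side, with 184 higher and 261 lower among the 445 called (3.79% of 11732). Pseudogenes (69 higher, 16 lower) and microRNA genes (12 higher, 0 lower) leaned to the higher side. The median difference over all genes tested was 0.03, and the groups did not overlap in 59.8% of genes, so absence of overlap alone says little with 2 libraries each. Each fit with 1 library left out applied the filter again. A gene near 0 in 1 group, such as Lef1 or Kng1, was then not tested when a library of the other group was left out. The counts of these fits, and their split into higher and lower, are in part set by the filter. Leaving out 1 library changed the count of called genes strongly. With replicate 1 or replicate 2 of ALL-FGF10 left out it fell to 32 and 17. With replicate 1 or replicate 2 of ALL-MTG left out it fell to 307 and 487. Libraries outside the comparison moved it too, through the shared spread: it rose to 940 and 949 without replicate 1 or 2 of ALL and fell to 345 and 344 without replicate 1 or 2 of ALL-VC. In all, 189 of the 597 (119 higher, 70 lower) were called without either ALL-MTG library. Tubb6, Krt19, Tnfrsf12a, Areg, Gclc, Igfbp7, S100g, Cldn4, Klk13, Kng2, Rpl11, Rps7 and the pseudogenes Gm12245, Gm9794 and Gm46209, 15 in all, were called whichever of the 8 libraries was left out. With the number of listed genes of 100 to 150 nucleotides as a term, 223 genes were called, 139 of them among the 597, and the share called higher was 61.4% instead of 51.1%.

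**Figure D1:**
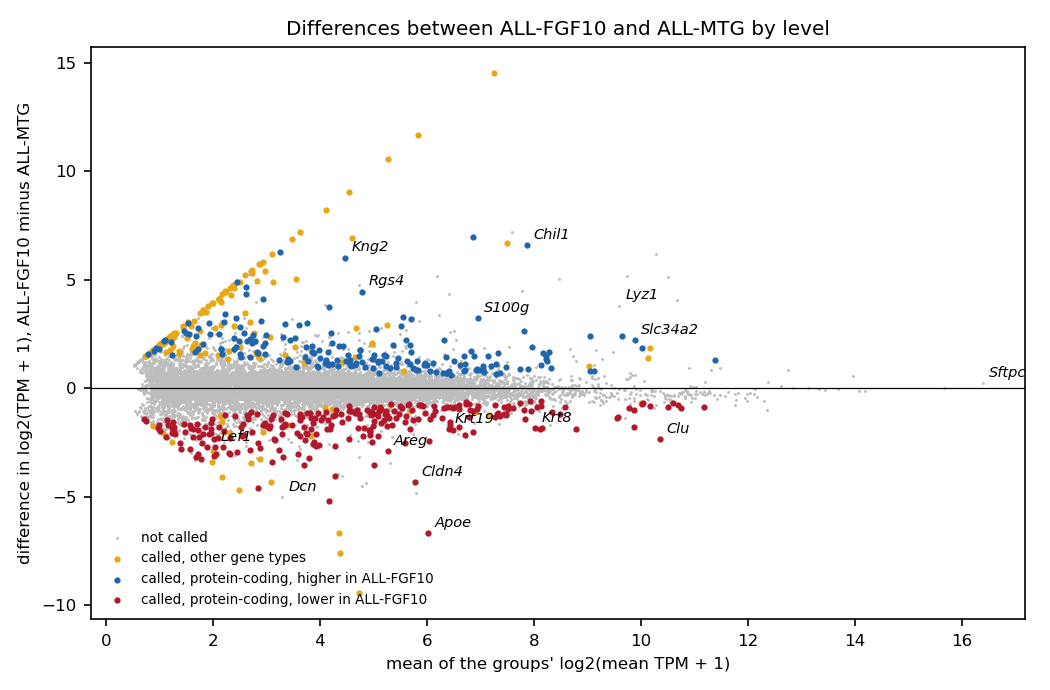
Difference in log2(TPM + 1) between ALL-FGF10 and ALL-MTG (vertical axis, positive where ALL-FGF10 is higher) against the mean level of the groups on the log2 scale (horizontal axis), 1 point for each of 13735 genes. Coloured points are the 597 called genes; the straight upper edge holds genes listed at 0 in ALL-MTG, most of them pseudogenes and microRNA genes (yellow), while Chil1, Kng2 and Slc34a2 are protein-coding genes on the higher side and Cldn4 and Apoe on the lower.

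Several AT2 genes had higher levels without FGF10 than without MTG. Of 22 AT2 and surfactant genes, all tested, 9 were higher and 0 lower, against 2.22% and 2.13% of all genes, and the median difference of the list was 1.09. The major surfactant proteins C and B were not among the 9. The called genes were those of surfactant protein A, of lipid and phosphate handling and of secreted defence. Without ALL-FGF10 replicate 1 or 2, 1 and 0 of the list were called. Without ALL-MTG replicate 1 or 2 the numbers were 4 and 13. In bulk samples, fewer cells of a type and less RNA per cell cannot be told apart.

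Slc34a2, the apical phosphate transporter of AT2 cells, was at 1767 and 2255 TPM in ALL-FGF10 and 342 and 552 TPM in ALL-MTG. The difference was 2.20 (SE 0.29, adjusted p = 0.00874), or 4.50-fold between means. Both ALL-FGF10 libraries lay far above both ALL-MTG libraries, and complete medium lay between them at 1029 and 1004. Sftpa1, surfactant protein A, was at 1745 and 1942 TPM against 291 and 407, a difference of 2.41 (SE 0.39, adjusted p = 0.0187). Here complete medium was with ALL-FGF10 (1624 and 1464 TPM) and ALL-VC was nearer ALL-MTG (257 and 666 TPM). Chil1, a secreted chitinase-like protein, showed the widest gap of the list, 2303 and 1828 TPM against 9.36 and 42.3, a difference of 6.60 (SE 0.72, adjusted p = 0.00425). Both ALL-MTG libraries were low, whereas complete medium held 2615 and 793 TPM. Lyz2, lysozyme, was at 113 and 87.8 against 13.0 and 32.1 TPM and was higher still in complete medium (200.5 and 309 TPM). Cxcl15 (lungkine, a chemokine of lung epithelium) was at 3923 and 4386 against 1408 and 2076 TPM, with an adjusted p of 0.0245.

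Smaller differences were found in the lamellar body genes. Abca3, the lipid pump of lamellar bodies, was at 438 and 445 against 217 and 245 TPM, a difference of 0.93 (SE 0.13, adjusted p = 0.00977). Lamp3, a lamellar body membrane protein, was at 699.5 and 758 against 366 and 477 TPM (0.80, adjusted p = 0.0398). Both differences were below 1, which is less than a doubling. Fabp5, a fatty acid binding protein, and Acot7, a thioesterase, were higher by 1.84 and 1.46. Sftpc was at 90283 and 97052 TPM in ALL-FGF10 and 80426 and 78632 TPM in ALL-MTG, a difference of 0.24 with a 95% interval of -0.46 to 0.93. Sftpb differed by 0.28 (95% interval -0.21 to 0.76). Neither passed the test, and the intervals leave room for differences of either sign. Sftpd (961 and 899.6 against 217 and 607 TPM) and Lyz1 (2768 and 1514 against 40.6 and 516 TPM) did not overlap but missed the threshold (adjusted p = 0.131 and 0.0939). In both, the ALL-MTG libraries lay far from each other, with replicate 1 the lower. For all 9 called genes of the list the mean of complete medium lay nearer ALL-FGF10 than ALL-MTG, while ALL-VC lay nearer ALL-FGF10 for 4 and nearer ALL-MTG for 5.

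**Figure D2:**
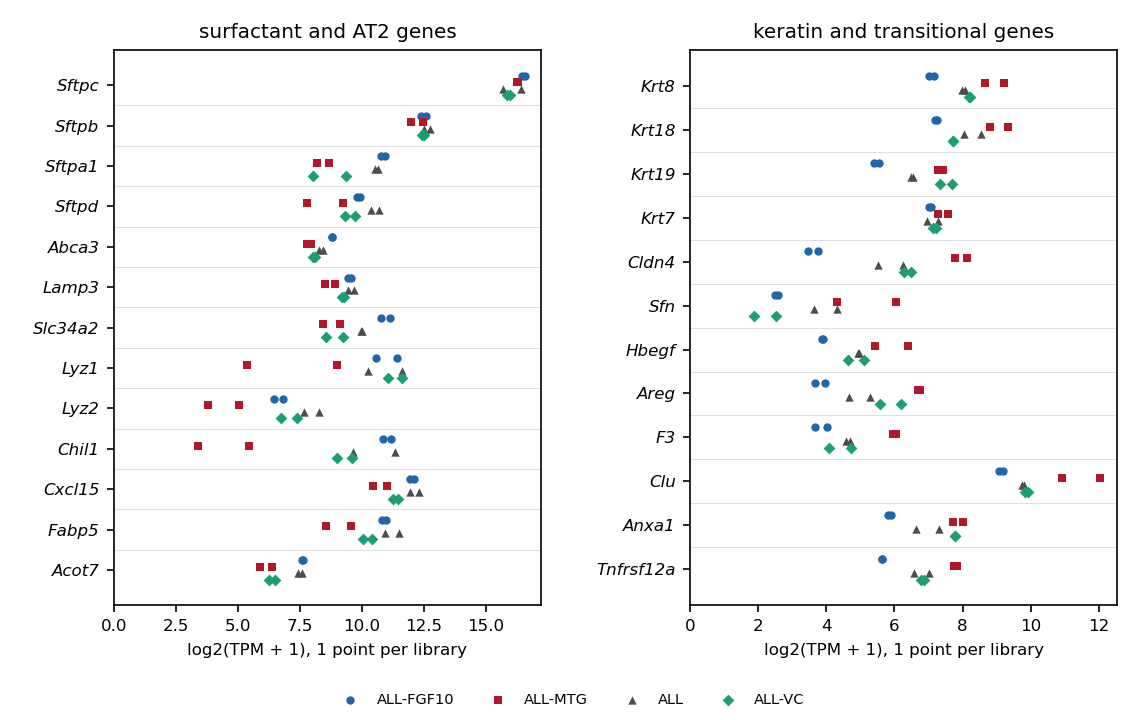
Level of single genes in log2(TPM + 1), 1 point per library, for 13 AT2 genes (left) and 11 keratin and transitional genes with Tnfrsf12a (right) in ALL-FGF10, ALL-MTG, ALL and ALL-VC. On the left the ALL-MTG squares are lowest for Chil1, Lyz2 and Fabp5 while Sftpc and Sftpb lie together; on the right the ALL-FGF10 circles lie lowest for all but Sfn, where ALL-VC is as low, and Krt7, where the conditions overlap.

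The promoters of 4 genes on the higher side are shown because they hold the letters bound by C/EBP factors, which are known for roles in AT2 and liver gene expression. Each line gives the 250 bases before the RefSeq start of the gene (GRCm38.p6), 5′ to 3′ on the gene's strand, with the match to TTGCNNAA on either strand in capitals.
Slc34a2 chr5:53049103-53049352 (plus strand): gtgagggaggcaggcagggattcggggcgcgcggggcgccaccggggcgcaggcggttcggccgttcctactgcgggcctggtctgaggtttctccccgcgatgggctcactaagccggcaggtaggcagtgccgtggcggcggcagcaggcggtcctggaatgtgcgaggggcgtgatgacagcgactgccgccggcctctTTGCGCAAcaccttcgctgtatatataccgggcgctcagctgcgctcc
Kng2 chr16:23029102-23029351 (minus strand): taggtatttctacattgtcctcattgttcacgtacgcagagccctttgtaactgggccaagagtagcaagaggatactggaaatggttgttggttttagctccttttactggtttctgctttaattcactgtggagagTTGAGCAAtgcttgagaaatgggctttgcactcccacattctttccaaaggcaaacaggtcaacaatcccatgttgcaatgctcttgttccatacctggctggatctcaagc
C3 chr17:57228137-57228386 (minus strand): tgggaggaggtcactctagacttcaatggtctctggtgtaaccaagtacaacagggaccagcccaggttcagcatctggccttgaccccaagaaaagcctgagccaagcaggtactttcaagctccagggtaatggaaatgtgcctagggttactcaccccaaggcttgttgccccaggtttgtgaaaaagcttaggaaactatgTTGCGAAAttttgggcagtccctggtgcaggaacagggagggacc
S100g chrX:162964600-162964849 (minus strand): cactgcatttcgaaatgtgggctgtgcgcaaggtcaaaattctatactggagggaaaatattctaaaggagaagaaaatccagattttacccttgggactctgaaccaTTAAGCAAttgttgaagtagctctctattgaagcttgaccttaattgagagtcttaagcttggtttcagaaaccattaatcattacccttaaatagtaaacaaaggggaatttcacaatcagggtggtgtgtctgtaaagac
The match lay 48 bases before the start in Slc34a2, 112 in Kng2, 45 in C3 and 142 in S100g. The motif was found in 27 of 157 matched promoters of genes called higher (17.2%) and in 11 of 197 of genes called lower (5.58%). It was in 7.14% of the 9757 matched promoters of genes tested and in 9.55% of all 27025. The motif was chosen after the called genes were known. A match is a run of letters and does not show binding.

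Genes of fatty acid and phospholipid synthesis were called higher in 4 of 20 and lower in 0, with a list median of 0.35. Gpam, which starts glycerolipid synthesis, was at 97.5 and 106 TPM in ALL-FGF10 and 26.0 and 23.1 TPM in ALL-MTG, a difference of 2.01 (SE 0.22, adjusted p = 0.00443). Complete medium lay between the groups (47.9 and 63.7 TPM). Elovl1, a fatty acid elongase, Acly, which supplies cytosolic acetyl-CoA, and Acsl4, an acyl-CoA synthetase, were higher by 1.05, 0.86 and 0.70. None of these 4 calls was made without ALL-FGF10 replicate 1 or 2, and without either ALL-MTG library in turn 2 genes of the list were called.

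Transcripts of some secreted complement and kinin proteins were higher in ALL-FGF10. In the list of complement and mucosal defence genes 4 of 15 tested were higher and 0 lower, and the median was 1.07. Kng2, a kininogen, was at 172 and 176 TPM in ALL-FGF10 and 1.08 and 2.55 TPM in ALL-MTG, a difference of 6.01 (SE 0.26, adjusted p = 3.83e-05). Complete medium (60.4 and 55.3 TPM) and ALL-VC (18.2 and 16.4 TPM) lay between, so ALL-FGF10 was the highest of the 4 conditions. Hc, complement component 5, was likewise highest in ALL-FGF10, at 474 and 539 TPM against 164 and 160.3 TPM in ALL-MTG and 137 and 192 TPM in complete medium (difference 1.63, SE 0.23, adjusted p = 0.0121). C3 was at 158 and 125 against 7.27 and 28.9 TPM (adjusted p = 0.0256), with complete medium above both at 304 and 195. Kng1 was the fourth, at 1.59 and 2.36 TPM against 0 in both ALL-MTG libraries. Kng1 passed the filter only through ALL-FGF10, and was not tested once 1 of its libraries was left out. C6, another complement component outside the list, was at 132 and 111 against 4.11 and 29.8 TPM and is named after its values were seen. Without either ALL-FGF10 library in turn, 1 of the list, Kng2, was called, and without ALL-MTG replicate 1 or 2, 2 and 5 were.

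Chemokine and cytokine genes split, with 2 of 11 higher and 1 lower. Cxcl3, a neutrophil chemokine, was at 97.1 and 62.2 against 6.06 and 19.4 TPM, and Csf1, the macrophage growth factor, at 25.1 and 17.6 against 2.24 and 4.62 TPM (difference 2.37, SE 0.30, adjusted p = 0.00786). Both were higher in complete medium than in either omission. Cx3cl1, fractalkine, was lower in ALL-FGF10, at 2.66 and 4.20 against 14.2 and 14.6 TPM. In the interferon response list 18 of 19 differences were positive with a median of 1.24, yet only Ifit3 was called higher (99.3 and 130.0 against 7.82 and 26.6 TPM, adjusted p = 0.0246) and Sp100 lower. Sp100 passed the filter only through ALL-MTG. Mx2, Oas1a and Rsad2 passed it only through ALL-FGF10, so the sign of these differences was set by the filter. Complete medium held Ifit3 at 133 and 72.6 TPM and ALL-VC at 16.2 and 16.8 TPM. Leukocyte markers summed to between 1.00 and 4.10 TPM over the 4 libraries. In the MHC list limma called 0 of 17, and 2 had an unadjusted p under 0.05.

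Among other genes on the higher side, S100g, the calcium-binding protein calbindin-D9k, was at 359 and 379.7 TPM in ALL-FGF10 and 27.8 and 52.9 TPM in ALL-MTG, a difference of 3.23 (SE 0.28, adjusted p = 0.00147). Igfbp7, a secreted binding protein of insulin-like growth factors, was at 479 and 477 against 124 and 135 TPM, a difference of 1.88 (SE 0.12, adjusted p = 0.000293). The replicates of each group were nearly the same in Igfbp7, and complete medium (365 and 335 TPM) lay between. Gclc, the rate-limiting subunit of glutathione synthesis, was at 209 and 201 against 64.4 and 59.7 TPM (1.71, adjusted p = 0.00102). Klk13, a kallikrein-related protease, was at 36.5 and 28.8 against 2.62 and 4.30 TPM. These 4 genes kept their calls whichever of the 8 libraries was left out.

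Rgs4, an inhibitor of G protein signalling, was at 108 and 101 TPM against 0.86 and 11.52 TPM, and complete medium was also low (11.9 and 10.9 TPM). Fbp2, a fructose bisphosphatase, was at 28.2 and 30.7 against 0 and 0.47 TPM and at 4.12 and 3.40 TPM in complete medium. Slc6a15, an amino acid transporter, was at 26.1 and 26.9 against 0.33 and 0.40 TPM. Fbp2 and Slc6a15 passed the filter only through ALL-FGF10, and were not tested once 1 of its libraries was left out. For Rgs4, Fbp2 and Slc6a15 ALL-FGF10 stood above the other 3 conditions. Trf, transferrin, shows the opposite arrangement, at 1183 and 1050 TPM against 118 and 382 TPM, with complete medium at 1299 and 1471 TPM. Atp1b1, a sodium pump subunit, was higher by 1.25 (SE 0.14, adjusted p = 0.00421). The rule for the 12 genes with the widest positive difference also took Nup62cl, Snhg9, Zfp993 and 4 microRNA genes. Mir546 (109 and 192 TPM), Mir6236 (45.5 and 58.3 TPM) and Snhg9 (20.2 and 10.1 TPM) were at 0 in all 6 other libraries of the table, among the 92 genes described above. Zfp993, at 30.9 and 28.7 TPM, was at most 1.42 TPM in those 6, but at 47.8 TPM in 2C.

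Several keratin and transitional state genes were lower in ALL-FGF10 than in ALL-MTG. Of 21 tested, 10 were lower and 0 higher, against 2.13% and 2.22% of all genes tested, and the list median was -1.85. The 10 were Krt8, Krt18, Krt19, Cldn4, Sfn, Hbegf, Areg, F3, Clu and Anxa1. Without ALL-FGF10 replicate 1 or 2, 4 and 3 genes of the list were called; without ALL-MTG replicate 1 or 2, 9 and 13.

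Cldn4, a claudin of tight junctions, was at 12.4 and 10.0 TPM in ALL-FGF10 and 279 and 217 TPM in ALL-MTG, a difference of -4.35 (SE 0.27, adjusted p = 0.000221), or 22.1-fold between means. Complete medium (44.3 and 75.8 TPM) and ALL-VC (77.2 and 89.4 TPM) lay between, so ALL-FGF10 was the lowest and ALL-MTG the highest of the 4 conditions. The paired simple keratins Krt8 and Krt18, which form 1 filament, were at 143 and 127 and at 153 and 144 TPM in ALL-FGF10. In ALL-MTG they were at 598 and 399 and at 644 and 444 TPM. The differences were -1.85 and -1.85, with adjusted p-values of 0.00352 and 0.00567. Krt19 was at 40.9 and 45.6 against 172 and 153 TPM, a difference of -1.88 (SE 0.16, adjusted p = 0.00148). Krt7 was at 128 and 134 against 189.7 and 154 TPM and did not pass the test (-0.39, 95% interval -0.76 to -0.01).

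The EGF receptor ligands Areg and Hbegf were both lower. Areg was at 11.7 and 14.6 TPM against 106 and 103 TPM (-2.90, SE 0.28, adjusted p = 0.00234), and Hbegf at 13.54 and 13.8 against 42.2 and 82.7 TPM (-2.03, SE 0.31, adjusted p = 0.0155). F3, tissue factor, was at 11.7 and 15.3 against 65.1 and 61.6 TPM. Clu, the extracellular chaperone clusterin, was at 541 and 587 against 4197 and 1929 TPM. Its 2 ALL-MTG libraries differed from each other, and complete medium lay between the groups (862 and 896 TPM). Anxa1, an annexin, was at 54.6 and 58.6 against 257 and 211 TPM, and Sfn, 14-3-3 sigma, at 4.58 and 5.01 against 65.3 and 18.7 TPM with an adjusted p of 0.0412. Outside the list, Tnfrsf12a, the receptor of the cytokine TWEAK, was at 48.2 and 48.5 against 227 and 213 TPM, a difference of -2.16 (SE 0.17, adjusted p = 0.00086). Tubb6, a beta tubulin, was at 3.38 and 3.06 against 29.3 and 37.9 TPM (-3.03). For the 10 called list members the mean of complete medium lay nearer ALL-MTG for 7 and nearer ALL-FGF10 for 3.

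The promoters of Cldn4 and F3 are shown because each holds a pair of AP-1 motifs, the letters bound by FOS and JUN factors. They are written as above, with matches to TGANTCA on either strand in capitals.
Cldn4 chr5:134946935-134947184 (minus strand): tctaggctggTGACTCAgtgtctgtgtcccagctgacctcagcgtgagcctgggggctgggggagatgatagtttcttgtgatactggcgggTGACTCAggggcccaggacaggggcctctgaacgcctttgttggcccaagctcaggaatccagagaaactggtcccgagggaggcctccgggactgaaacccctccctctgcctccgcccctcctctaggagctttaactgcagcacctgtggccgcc
F3 chr3:121723287-121723536 (plus strand): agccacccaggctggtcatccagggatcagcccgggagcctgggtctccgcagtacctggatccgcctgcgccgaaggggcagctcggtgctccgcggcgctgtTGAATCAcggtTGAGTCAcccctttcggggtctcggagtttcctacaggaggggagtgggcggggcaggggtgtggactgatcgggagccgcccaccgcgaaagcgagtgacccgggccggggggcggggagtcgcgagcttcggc
The matches lay 240 and 158 bases before the start in Cldn4 and 146 and 135 in F3. The motif was in 5 of 19 matched promoters of the list, in 13 of 197 of genes called lower (6.60%), in 8 of 157 of genes called higher (5.10%), in 4.02% of those tested and in 6.87% of all promoters.

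Of 12 FGF receptor and ligand genes tested, limma called 0 at adjusted p under 0.05 and 5 had an unadjusted p under 0.05. Fgfr2, which encodes the receptor of FGF10, was at 336 and 315 TPM in ALL-FGF10 and 187 and 284 TPM in ALL-MTG (0.50, adjusted p = 0.213). Of 17 genes of the FGF response 2 were lower and 0 higher. Differences were positive in 6 and negative in 11, and the median was -0.39. Etv5 was at 169.6 and 184 against 287 and 265 TPM, a difference of -0.64 (95% interval -1.04 to -0.24, adjusted p = 0.0881). Dusp6, the ERK phosphatase, was at 19.5 and 22.3 against 38.4 and 40.3 TPM (-0.88, adjusted p = 0.0821). The groups did not overlap for either gene, but both missed the threshold. Etv1 went the other way, with means of 7.27 against 1.31 TPM (1.95, adjusted p = 0.0804), and missed it too. The 2 called were Myc and Fosl1, an AP-1 subunit that was at 0 in both ALL-FGF10 libraries and at 1.44 and 1.94 TPM in ALL-MTG. Fosl1 thus passed the filter only through ALL-MTG.

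WNT target genes were lower in 3 of 15 and higher in 0, with a median of -0.60. Lef1, a transcription factor of the pathway, was at 0.35 and 0.80 TPM in ALL-FGF10 and 7.13 and 12.1 TPM in ALL-MTG, a difference of -2.73 (SE 0.40, adjusted p = 0.0134). Tnfrsf19 (TROY), a receptor of the TNF family, was at 3.15 and 2.65 against 18.9 and 20.3 TPM, and Myc at 3.40 and 2.23 against 12.4 and 26.1 TPM. Axin2, the feedback inhibitor often taken as the readout of WNT signalling, was at 13.7 and 18.7 against 34.2 and 29.5 TPM and did not pass (-0.95, adjusted p = 0.171). Among 18 ligand and receptor genes 2 were lower. Wnt7b, a ligand of distal lung epithelium, was at 5.98 and 5.07 against 23.9 and 29.5 TPM (-2.08, SE 0.28, adjusted p = 0.00896), and Ror2, a receptor, at 0.90 and 0.74 against 5.24 and 4.37 TPM. Complete medium had low values of Wnt7b (14.4 and 10.3 TPM), and ALL-VC values as high as ALL-MTG (43.1 and 28.4 TPM). Lef1 and Ror2 passed the filter only through ALL-MTG, and were not tested once 1 of its libraries was left out. No call in these 2 lists or in the FGF response list was made without ALL-FGF10 replicate 1 or 2. Without either ALL-MTG library in turn 2 WNT targets were called.

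Targets of YAP were lower in 5 of 14 and higher in 0 (median -0.61). Ccn1 and Ccn2, secreted matricellular proteins, were at 48.5 and 54.1 and at 16.8 and 19.9 TPM in ALL-FGF10. In ALL-MTG they were at 161 and 195 and at 160.4 and 77.3 TPM, and the differences were -1.77 and -2.54 (adjusted p = 0.00776 and 0.00874). Ptpn14, Gadd45b and Fstl1 were the other 3. Of 20 genes of TGF-beta, activin and BMP signalling 3 were lower and 18 had a negative difference. Tgfb2, a ligand, was at 19.4 and 19.4 against 47.7 and 45.6 TPM, with complete medium at the level of ALL-FGF10 (17.4 and 14.6 TPM). Fst, the activin antagonist follistatin, was at 0.16 and 0.06 against 12.8 and 4.83 TPM and at most 0.13 TPM in ALL and ALL-VC. Bmp7 was at 0.30 and 0.42 against 6.15 and 3.15 TPM. For these 3 genes ALL-MTG was the highest of the 4 conditions. Fst and Bmp7 passed the filter only through ALL-MTG, and were not tested once 1 of its libraries was left out. None of the 8 calls was made without ALL-FGF10 replicate 1 or 2. Without ALL-MTG replicate 1, 2 YAP targets and 0 TGF-beta genes were called, and without its replicate 2, 5 and 2.

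Genes of the ATF4 amino acid stress response were lower in 6 of 20 and higher in 0 (median -0.67). Asns, asparagine synthetase, was at 11.9 and 13.51 TPM in ALL-FGF10 and 35.4 and 64.0 TPM in ALL-MTG, a difference of -1.83 (SE 0.32, adjusted p = 0.0236). Atf3, a stress-induced transcription factor, was at 4.43 and 4.72 against 17.6 and 58.0 TPM, and Trib3, a pseudokinase, at 5.28 and 6.67 against 23.7 and 22.8 TPM. Chac1, which degrades glutathione, was at 1.05 and 0.50 against 8.73 and 12.4 TPM, Atf5 at 22.7 and 23.3 against 71.8 and 54.0 TPM, and Slc3a2, the heavy chain of amino acid transporters, at 78.8 and 77.0 against 137 and 178 TPM. Atf4 itself, which is controlled largely at translation, was at 131 and 130.2 against 142 and 253 TPM and was not called (-0.53, 95% interval -1.10 to 0.03). Of 12 ER chaperones limma called 0, with 1 at an unadjusted p under 0.05 and a median of -0.11. Without ALL-FGF10 replicate 1 or 2 none of the 6 was called, and without ALL-MTG replicate 1 or 2, 5 and 4 genes of the list were.

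Promoters of 3 of these genes are shown because they hold the composite C/EBP-ATF element. The capitals mark matches to TGATGNAA on either strand.
Asns chr6:7693210-7693459 (minus strand): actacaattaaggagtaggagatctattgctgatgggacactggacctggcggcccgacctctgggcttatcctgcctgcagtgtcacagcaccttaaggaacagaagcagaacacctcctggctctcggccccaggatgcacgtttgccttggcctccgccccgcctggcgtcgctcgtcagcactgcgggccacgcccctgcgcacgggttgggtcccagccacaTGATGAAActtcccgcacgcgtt
Chac1 chr2:119350992-119351241 (plus strand): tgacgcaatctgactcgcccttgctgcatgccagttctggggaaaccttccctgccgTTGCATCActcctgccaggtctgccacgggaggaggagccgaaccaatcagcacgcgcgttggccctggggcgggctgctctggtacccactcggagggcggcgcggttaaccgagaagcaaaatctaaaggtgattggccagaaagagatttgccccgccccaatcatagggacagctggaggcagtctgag
Atf3 chr1:191183334-191183583 (minus strand): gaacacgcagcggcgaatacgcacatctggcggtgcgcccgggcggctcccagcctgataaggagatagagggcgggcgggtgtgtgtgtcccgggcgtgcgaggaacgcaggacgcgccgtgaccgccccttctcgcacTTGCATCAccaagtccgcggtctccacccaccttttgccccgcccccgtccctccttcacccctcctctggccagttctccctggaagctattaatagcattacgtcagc
The element lay 23 bases before the start in Asns, 193 in Chac1 and 110 in Atf3. It was in 4 of 18 matched promoters of the list, in 8 of 197 of genes called lower (4.06%), in 2 of 157 of genes called higher (1.27%), in 1.93% of those tested and in 3.53% of all promoters.

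Genes of the matrix and of cell junctions were mixed. Of 22 basement membrane and integrin genes 3 were lower and 1 higher. Lama3, a laminin chain of epithelial basement membrane, was at 48.3 and 46.8 TPM in ALL-FGF10 and 127 and 120.3 TPM in ALL-MTG, a difference of -1.36 (SE 0.15, adjusted p = 0.00417). Hspg2, perlecan, was at 12.3 and 16.0 against 56.1 and 48.6 TPM and Col18a1, the precursor of endostatin, at 110.2 and 117 against 284 and 236 TPM. Lamb1, another laminin chain, went the other way at 25.2 and 27.5 against 3.63 and 9.64 TPM. For all 4 the mean of complete medium lay nearer ALL-FGF10. Cldn3, Cldn6 and Epcam were the 3 lower of 16 junction and adhesion genes, with differences of -1.11, -1.48 and -0.89. The water channels Aqp1 (5.34 and 7.12 against 26.5 and 34.9 TPM) and Aqp4 (0.06 and 0.06 against 3.44 and 11.2 TPM) were lower as well. Aqp4 passed the filter only through ALL-MTG, and was not tested once 1 of its libraries was left out. None of these calls was made without ALL-FGF10 replicate 1 or 2. Without ALL-MTG replicate 1 or 2, 3 and 5 basement membrane genes and 1 and 2 junction genes were called.

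Several of the lowest genes are given here beside mesenchymal markers. Vim, the intermediate filament of mesenchymal cells, was at 2.65 and 5.08 TPM in ALL-FGF10 and 84.8 and 70.9 TPM in ALL-MTG, a difference of -4.06 (SE 0.62, adjusted p = 0.0148). Apoe, apolipoprotein E, was at 4.44 and 3.85 against 1457 and 187 TPM (-6.67, SE 0.82, adjusted p = 0.00703). Apoc1, Mcam and Fstl1 showed the same arrangement, with ALL-MTG replicate 1 the highest (263, 183 and 77.5 TPM) and replicate 2 lower (24.2, 53.5 and 19.5 TPM). The 15 mesenchymal markers summed to 3.32 and 2.77 TPM in ALL-FGF10, to 206 and 15.7 TPM in ALL-MTG and to 126 and 6.17 TPM in complete medium. Of those 15, 4 were tested, and all 4 differences were negative (median -2.06). Of these limma called 0, and 2 had an unadjusted p under 0.05. Dcn, decorin, carried most of the sum of ALL-MTG replicate 1 (168 and 6.57 TPM, adjusted p = 0.0652). Dcn and Acta2 passed the filter only through ALL-MTG, so the negative sign of their differences was set by the filter. Another 5 of the 15, Col3a1, Tbx5, Meox2, Tcf21 and Foxf1, were at 0 in all 4 libraries. Without ALL-MTG replicate 1, Apoe, Mcam, Thbs1 and Tubb6 stayed called, and Vim, Apoc1 and Fstl1 did not. Apoe, Mcam, Vim, Apoc1 and Fstl1 were not called without ALL-FGF10 replicate 1 or 2. Thbs1 was called without the first of these and not without the second, and Tubb6 was called in both cases. Each of these fits leaves 1 library in a group. The part of mesenchymal RNA in these differences was not tested.

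Markers of other epithelial states are given beside the 4.35% of all genes that were called (2.22% higher, 2.13% lower). Of 20 AT1 genes 1 was lower, Igfbp2, at 5.35 and 7.80 against 31.5 and 66.8 TPM, and the median was 0.09. Ager, a common AT1 marker, was at 1154 and 1136 against 548 and 1040 TPM (0.60, adjusted p = 0.264). Of 13 distal tip genes tested, Shh, the hedgehog ligand of lung epithelium, was higher (41.2 and 45.8 against 15.1 and 14.9 TPM, 1.47, SE 0.21, adjusted p = 0.0116) and Wnt7b lower. Sox9, the tip transcription factor, was at 32.7 and 28.3 against 52.5 and 45.6 TPM and missed the threshold (adjusted p = 0.0733). Of 18 lung transcription factors, Foxa2 was higher (82.5 and 88.8 against 50.1 and 49.5 TPM) and Cebpb lower (8.19 and 8.08 against 18.8 and 28.2 TPM). Of the club, ciliated, goblet and neuroendocrine markers tested (6, 7, 3 and 3) limma called 0, with 1, 1, 1 and 1 at an unadjusted p under 0.05. Scgb3a1, Krt5, Krt14 and Trp63 were at or near 0 in the 4 libraries. Of 23 proliferation genes limma called 0, 2 had an unadjusted p under 0.05, and 20 were negative with a median of -0.40.

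The rule for the 12 widest negative differences also took genes outside these groups. Igfbp4, a binding protein of insulin-like growth factors, was at 1.87 and 1.31 TPM in ALL-FGF10 and 18.3 and 37.0 TPM in ALL-MTG (-3.39, SE 0.58, adjusted p = 0.0228). S100a16, a calcium-binding protein, was at 4.81 and 2.32 against 48.5 and 34.0 TPM, and Epb41l3, a membrane skeleton protein, at 2.95 and 1.60 against 37.5 and 20.5 TPM. Lrrn1, a leucine-rich repeat membrane protein, was nearly absent from ALL-FGF10 (0.17 and 0.04 TPM) and at 10.3 and 9.00 TPM in ALL-MTG. Gstp2, a glutathione transferase whose reads can be shared with its near copy Gstp1, was at 0 and 0 against 14.8 and 4.03 TPM and is uncertain for that reason. Cpxm2, a secreted carboxypeptidase-like protein, was at 0.28 and 0.28 against 17.8 and 5.77 TPM. Lrrn1, Gstp2 and Cpxm2 passed the filter only through ALL-MTG, and were not tested once 1 of its libraries was left out. S100a16 and Epb41l3 stayed called without ALL-FGF10 replicate 1 and not without replicate 2.

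Among 15 insulin-like growth factor and imprinted genes Igfbp7 was higher, and Igfbp4 and Grb10, an adaptor that restrains insulin signalling (72.2 and 65.2 against 132 and 137 TPM), were lower. Of 12 glucocorticoid and cAMP response genes 2 were lower, Sgk1, a kinase that acts on sodium transport (3.99 and 5.37 against 22.8 and 36.6 TPM, -2.41, SE 0.30, adjusted p = 0.00728), and Mt1, a metallothionein (90.4 and 99.9 against 190.0 and 311 TPM). Of 12 cathepsin genes Ctsc was higher (704 and 684 against 374 and 432 TPM) and Ctse lower (-2.49, SE 0.43, adjusted p = 0.0234). Thbs1, thrombospondin 1, was with Vim the second of 6 tested genes of epithelial-mesenchymal transition that were lower (50.6 and 40.6 against 179.5 and 169 TPM, adjusted p = 0.00502). Krt17, the only tested basal cell marker, was at 0 in ALL-FGF10 and 9.29 and 2.20 TPM in ALL-MTG, and Alb, the only tested marker of gut and liver endoderm, at 10.6 and 11.9 against 0.58 and 3.81 TPM. Krt17 passed the filter only through ALL-MTG, and was not tested once 1 of its libraries was left out. In the lists of glycolysis and hypoxia (18 tested), the EGF family (12) and Notch (8) limma called 0, with 4, 4 and 2 at an unadjusted p under 0.05. The single tested markers of endothelium, leukocytes and neural cells were not called and had no unadjusted p under 0.05, and no mesothelial or erythroid marker passed the filter.

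**Figure D3:**
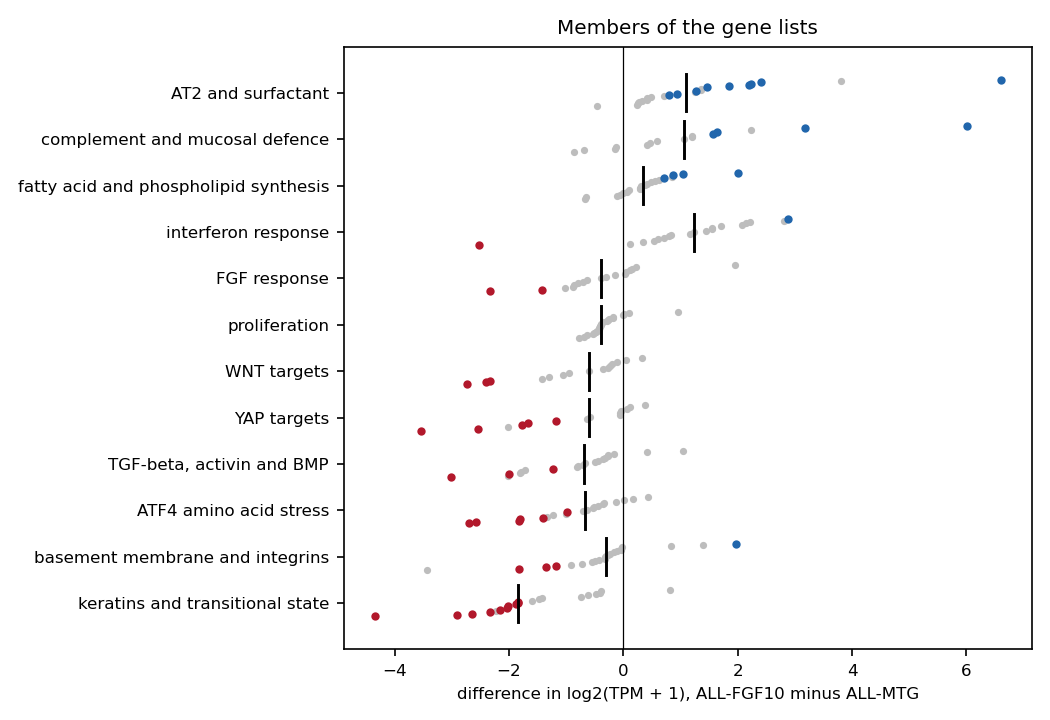
Difference in log2(TPM + 1), ALL-FGF10 minus ALL-MTG, of every tested member of 12 gene lists, 1 point per gene. Blue and red points passed the test as higher or lower, grey points did not, and the black bar is the list's median; called AT2 genes lie only to the right of 0 (median 1.09) and called keratin and transitional genes only to the left (median -1.85).

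The 2C table allows a comparison of additions that shares no library with the omissions. It has 1 library per medium, so differences have no replicate check and no test. If an addition mirrored an omission, genes with higher levels under omission of FGF10 than of MTG would be lower in 2C+F10 than in 2C+MTG. Past a 2-fold difference lay 1214 of 10847 genes (11.2%), 749 higher in 2C+F10 (6.91%) and 465 lower (4.29%). Of the 597 called genes 251 had the opposite sign in the additions, which is 42.0%, beside 47.9% of all genes tested. Among protein-coding genes called higher in ALL-FGF10, 134 of 184 were also higher in 2C+F10 (72.8%), where 63.8% of all protein-coding genes were. Among those called lower, 146 of 261 were higher in 2C+F10 (55.9%).

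The AT2 and the keratin genes differed in this respect. The AT2 list had a positive median where FGF10 was left out and also where it was added, each time relative to MTG. In 2C, 18 of 22 were positive and the median was 1.17. Sftpa1 was at 208 TPM in 2C+F10, 59.6 in 2C+MTG and 74.0 in 2C. Slc34a2 was at 368, 155 and 327 TPM in the same order, and Lamp3 at 265, 94.0 and 204 TPM. In Slc34a2 and Lamp3, 2C+MTG lay below 2C and 2C+F10 above it. Sftpc went the other way, at 24321, 40216 and 24913 TPM.

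The keratin and transitional list changed sign in the additions, where 18 of 21 were positive and the median was 1.42. Krt8 was at 655 TPM in 2C+F10, 265 in 2C+MTG and 459.9 in 2C, and Krt19 at 410.0, 101 and 289.6 TPM. Anxa1 was at 524, 90.5 and 338 TPM. Clu and Hbegf were the exceptions among the called members. Clu was at 456, 2908 and 217 TPM, so that it was high with MTG added and also high in ALL-MTG. Hbegf had a difference of -1.01 in 2C. Apoe, like Clu, was highest in 2C+MTG (480.4 TPM against 34.5 in 2C+F10).

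Proliferation genes, of which 0 were called between the omissions, were lower in 2C+F10 than in 2C+MTG in 23 of 23, with a median of -1.45 and 19 of them past the 2-fold difference. Without replicates this cannot be set against the spread between libraries. In 2C the medians were 0.17 for WNT targets, -0.16 for WNT ligands and receptors, 0.20 for YAP targets and 0.10 for ATF4 genes, beside 0.12 over all genes tested. Club markers had a 2C median of 5.56, with 6 of 6 tested past the 2-fold difference and higher in 2C+F10. Ciliated markers had 3.34, with 5 of 7. Both medians were above those of the AT2 and keratin lists.

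**Figure D4:**
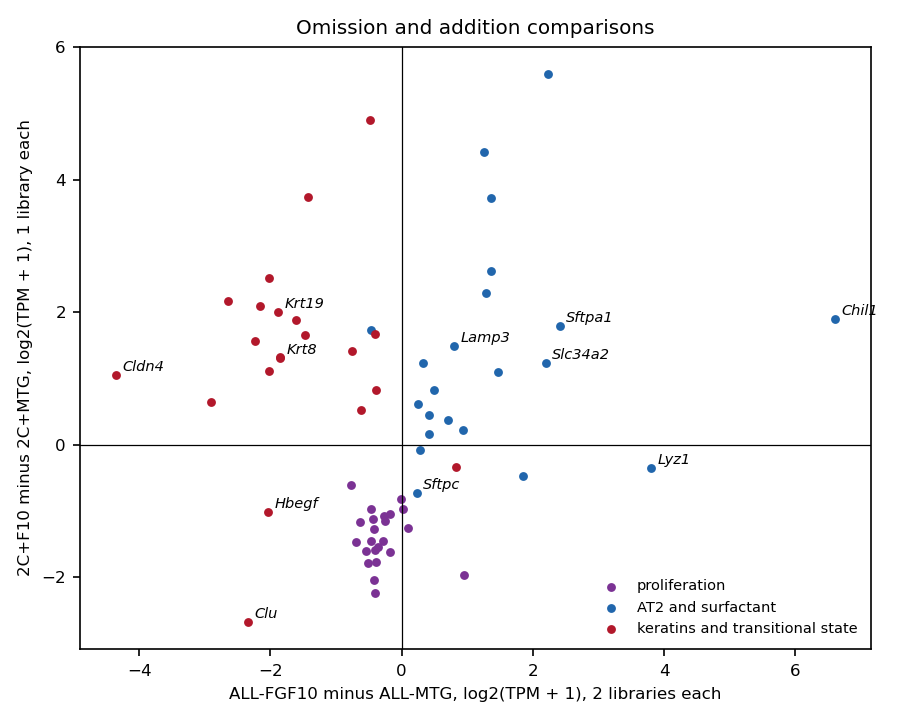
Difference between additions (2C+F10 minus 2C+MTG, 1 library each, vertical axis) against difference between omissions (ALL-FGF10 minus ALL-MTG, 2 libraries each, horizontal axis), both in log2(TPM + 1), 1 point per gene of 3 lists. AT2 genes lie mostly at the upper right, keratin and transitional genes mostly at the upper left with Clu and Hbegf below, and proliferation genes all below 0 on the vertical axis near 0 on the horizontal.

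Complete medium and ALL-VC are described only for their place between the groups, since they share the estimate of the spread. Of the 597 called genes both ALL libraries lay between the groups in 258, above all 4 libraries in 31 and below them in 17. The mean of complete medium was nearer ALL-MTG for 355 of the 597 and that of ALL-VC for 425, where for all genes tested the numbers were 7805 and 7602 of 13735.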

How the data were processed

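Bulk RNA-seq of mouse lung organoids was analysed from gene tables of TPM values that the authors deposited. Per the submitters' processing notes RSEM, Bowtie2 and mm10 were used, without versions. Per the labels' protocols total RNA was extracted with TRIzol and libraries were made with an mRNA kit. TPM is scaled within a library, so depth is unknown. Totals lay between 998247 and 998694 TPM per library.

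Values were analysed as log2(TPM + 1), with 1 TPM as pseudocount. Genes with 1 TPM or more in at least 2 of the 4 libraries were fitted with limma 3.58.1 (R 4.3.3; lmFit, eBayes with a trend) over the 8 numbered libraries, two-sided, with Benjamini-Hochberg adjustment over all genes tested and a threshold of 0.05. An exact permutation test of 2 libraries against 2 cannot go below p = 0.333, so none was used. The script was tested on simulated data. The 2C table (1 library per medium) was compared without a test: a gene counted where log2(TPM + 1) differed by at least 1 and the higher library had at least 5 TPM. Differences are ALL-FGF10 minus ALL-MTG, and means and fold changes are over 2 libraries. All 55260 symbols matched GENCODE M21. Promoters and their coordinates are RefSeq's (GRCm38.p6), the first listed per gene.

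The genes named are the 12 highest and 12 lowest called genes without overlap and with a mean of at least 5 TPM in the higher group, leaving out predicted genes, mitochondrial genes and pseudogenes, and, of each list, up to 4 called members by adjusted p and the 2 most abundant. Tnfrsf12a, Tubb6, Gclc, Trf, C6, Klk13, S100g, Rps12l1, Rpl17-ps5, Rps7, Rpl11 and single list members beyond these were named after their values were seen. The comparison, the 45 gene lists and the motifs were chosen with earlier results of these data known, so list counts and medians are descriptions. Alternatives were other pseudocounts, filters and scalings, the fit on 4 libraries, no variance trend, a replicate block and leaving out each library. Terms for listed short genes and for Eif2s3y, and a fit on protein-coding genes only, were added after seeing the data. One gene and the list it belongs to are not reported here.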

Additional observations from a re-analysis of the deposited data

How the results depend on the processing

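The count of 597 called genes lay between 418 and 885 under the other pseudocounts, filters and scalings, on the 4 libraries alone (452), without the variance trend (535) and on protein-coding genes alone (582). It was 223 with the listing of short genes as a term and 315 with Eif2s3y as a term, and ran from 17 to 949 when single libraries were left out. The share called higher (51.1%) was 62.9% without a filter, 46.1% after quantile normalization, 55.3% on the 4 libraries, 61.4% with the short-gene term and 43.1% on protein-coding genes, and ran from 28.1% to 59.3% with single libraries left out. The 80 list members called became 41 without a filter and 49 with the short-gene term, and 5 to 112 with single libraries left out. The share of opposite sign in 2C (42.0%) was 47.5% with the short-gene term and 42.4% to 58.8% with single libraries left out. The count past the fold in 2C (1214) was 2341 with a minimum of 1 TPM, 757 with a pseudocount of 5 and 2638 at a fold of 1.5. The cause of these shifts was not tested, except that fewer libraries and added terms leave fewer residual degrees of freedom. Leaving out an ALL-FGF10 or ALL-MTG library also took genes out through the filter. Atf4, which was not called, changed sign to 0.19 with the short-gene term, and no other named gene changed sign under any alternative run.

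Deviations of same-numbered libraries from their group means correlated between -0.07 and 0.12 over the 6 pairs of groups (0.00 for ALL-FGF10 with ALL-MTG). With 2 libraries per group these values cannot say whether same-numbered libraries shared a preparation, which was not tested. With the number as a replicate block 501 genes were called, 467 of them among the 597. TPM values keep no read depth, so no counting error can be given for low genes.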
